A study of Rattus norvegicus with 16 samples.

Results

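The genes described here encode the MHC class II molecules of the rat and the invariant chain that travels with them. All probe sets whose gene symbol in the platform annotation was RT1-Ba, RT1-Bb, RT1-Da, RT1-Db1, RT1-DMa, RT1-DMb or Cd74 were taken. The rule used the symbols and no signals, but the genes were chosen with earlier results of these data known. This gave 10 probe sets for 7 genes, among 15866 probe sets that are not controls and 10411 genes with 1 symbol. All 10 were among the 11106 probe sets left for testing once the lowest 30% by mean signal had been set aside. RT1-Db1 probe set 1370382_at passed that filter narrowly, with a mean signal of 124.1 over the 16 arrays. Its group means were 38.0 in SH rats in SO2 and 58.3 in SH rats in air, beside 226.7 in SD rats in SO2 and 173.3 in SD rats in air. It thus passed only through its SD arrays.

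Lung RNA was measured on 16 Affymetrix arrays, 1 per biological replicate, in 4 groups of 4: spontaneously hypertensive (SH) rats exposed to sulfur dioxide (SO2), SH rats in air, Sprague Dawley (SD) rats exposed to SO2, and SD rats in air. SH rats are an inbred strain with high blood pressure, SD rats are an outbred stock, and SO2 is an irritant gas. The labels name no other allele or agent in any group. The sources used here do not give the dose, the length of exposure or the animals' age. The study set up SH rats as an SO2 airway disease model, and the questions for class II genes are whether SO2 altered them in either strain and where the strains differed.

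A class II molecule is a pair of an alpha and a beta chain that shows peptides from the endosome to CD4 T cells. Dendritic cells, B cells and macrophages carry it, and in the lung alveolar type II cells do as well. The invariant chain Cd74 fills the peptide groove during assembly, and RT1-DM later exchanges its last fragment for a peptide. RT1 is the name of the rat MHC, and the B and D chains, in particular the beta chains, are known to differ in sequence between MHC haplotypes. An inbred strain carries 1 haplotype and animals of an outbred stock can carry different ones.

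Class II genes and Cd74 share a short promoter module, known as the X and Y boxes, where the factors RFX and NF-Y bind and recruit the transactivator Ciita. The RefSeq promoter table (build GRCr8) held 6 of the 7 genes. The stretches below come from the 250 bases before each start site. Those of the 5 class II genes are shown because they share GNNACNG followed by ATTGG. Capitals mark GNNACNG and ATTGG, and in Cd74 the letters GCAAC. The Cd74 stretch holds no such pair, and GCAAC was marked there only because no pair was found. The stretches lie at chr20:4576971-4577028 (plus strand) for RT1-Ba, chr20:4604165-4604221 (minus) for RT1-Bb, chr20:4515323-4515380 (plus) for RT1-Da, chr20:4560228-4560284 (minus) for RT1-Db1, chr20:4712385-4712442 (minus) for RT1-DMa and chr18:56527126-56527188 (plus) for Cd74.
RT1-Ba: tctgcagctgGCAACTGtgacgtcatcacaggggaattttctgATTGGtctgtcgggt
RT1-Bb: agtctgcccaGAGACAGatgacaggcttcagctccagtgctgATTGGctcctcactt
RT1-Da: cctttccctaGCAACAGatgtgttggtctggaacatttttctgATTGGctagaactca
RT1-Db1: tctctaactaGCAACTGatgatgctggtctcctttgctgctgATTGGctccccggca
RT1-DMa: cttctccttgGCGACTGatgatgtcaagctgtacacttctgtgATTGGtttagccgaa
Cd74: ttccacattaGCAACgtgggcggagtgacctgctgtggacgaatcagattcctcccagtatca

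GNNACNG followed by ATTGG with 25 or 26 bases between them was present in 5 of the 6 promoters and in 102 of all 33469 promoters of the table (0.305%), searched on both strands over the same 250 bases. ATTGG began 43 bases before the start of RT1-Ba, 61 before RT1-Bb, 49 before RT1-Da, 80 before RT1-Db1 and 64 before RT1-DMa. Alone, ATTGG was in 34.0% of all promoters and GNNACNG in 82.1%. The longer CTGATTGG, which contains ATTGG, was in 4 of the 6 and in 3.19% of all, and GCAAC was in 4 of the 6 and in 29.5% of all. The 6 class II genes lie on chromosome 20 in the order RT1-Da, RT1-Db1, RT1-Ba, RT1-Bb, RT1-DMb and RT1-DMa, and Cd74 lies on chromosome 18. The motif letters were chosen after the sequences had been read, so the counts describe the promoters and test nothing.

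Signals are linear intensities scaled by the authors. Array medians ran from 250.2 to 281.8, and the ratio of 3′ to 5′ actin signal, a sign of RNA quality, ran from 1.29 to 3.12. The actin ratio was highest on SH SO2 replicate 1, at 3.12, followed by SD SO2 replicate 2, at 2.94. Sftpc, a surfactant gene of alveolar type II cells, averaged 29081 in SH rats in SO2, 25301 in SH rats in air, 30868 in SD rats in SO2 and 27925 in SD rats in air. One array stood apart from its label. On SD air replicate 2, the strain marker Terf2ip had a signal of 693.8. The other SD air arrays had 1982 to 2363, and the SH air arrays had 424.8 to 733.2. Of the 90 probe sets other than the class II genes that were called between SH and SD rats in SO2, 63 lay closer to the SH than to the SD mean on that array. The corresponding numbers were 11, 14 and 23 for the rest of the SD air group, and 67 to 78 for SH rats in air. The library labelled SD air replicate 2 was kept. Most log2 differences and call counts that rest on the SD air group are also given without it.

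SO2 was not followed by a called change in any of these genes in either strain. In SH rats in SO2 against air, 0 of the 10 probe sets passed at an adjusted p under 0.05 (limma, Benjamini-Hochberg over the 11106 tested), and 0 had an unadjusted p under 0.05. Over all probe sets 0 were called (0%), and 531 had an unadjusted p under 0.05. In SD rats the counts were again 0 of 10 called and 0 of 10 at an unadjusted p under 0.05, against 0% called over all probe sets and 921 at an unadjusted p under 0.05. Averaged over both strains, 0 of 10 were called and 0 had an unadjusted p under 0.05, against 0% of all and 939. None of the 10 had SO2 arrays that lay entirely above or below the air arrays of its strain, against 4.15% of all probe sets in SH rats and 3.54% in SD rats. Small changes can be missed at this size of study. In simulated data for SO2 against air in SH rats, 10.4% of log2 changes of 0.5 were recovered.

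The median log2 difference of the 10 probe sets, SO2 minus air, was -0.13 in SH rats and -0.02 in SD rats, and that of all tested probe sets was 0.02 in each strain. In SH rats 8 of the 10 differences lay below 0, and in SD rats 6 did. In whole lung tissue, fewer cells of a type and less RNA per cell cannot be told apart in such values. Without SD air replicate 2, 0 of the 10 were called and 0 had an unadjusted p under 0.05 in SD rats and averaged over strains. The median was then -0.06 in SD rats, with 8 of the 10 below 0, beside 0.01 for all tested probe sets.

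Cd74, the invariant chain, had signals of 11157.2, 13961.6, 13152.1 and 13300.3 in SH rats in SO2, against 12213.2, 13730.4, 14275.5 and 14753.9 in SH rats in air. It had 14892.9, 13129, 14705.8 and 16517.4 in SD rats in SO2, against 16103.9, 13374.5, 16072.1 and 14189.3 in SD rats in air. The SO2 and air arrays overlapped in both strains. The lowest array of the 16 was SH SO2 replicate 1, which also had the highest actin ratio, 3.12. The log2 difference of Cd74 was -0.09 in SH rats (95% interval -0.30 to 0.11, adjusted p 0.964) and -0.01 in SD rats (-0.22 to 0.20, adjusted p 0.985). Without SD air replicate 2 the SD value was -0.06 (adjusted p 0.92).

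RT1-Da, the alpha chain of the D molecule, varied little. Its signals were 5823, 6367.3, 6577 and 6825.1 in SH rats in SO2, against 6233.2, 6828.2, 6427.6 and 6670.7 in SH rats in air. In SD rats they were 6292.8, 5321.3, 7040.8 and 5385.2 in SO2, against 7434.4, 5724.2, 5650 and 6395.8 in air. Its log2 difference between SO2 and air was -0.03 in SH rats (interval -0.26 to 0.19) and -0.07 in SD rats (-0.29 to 0.16, and -0.11 without SD air replicate 2).

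RT1-DMa and RT1-DMb encode the peptide exchange factor. RT1-DMa had 600.6, 604.1, 529 and 643.1 in SH rats in SO2, against 611.9, 580.7, 621.9 and 695.2 in SH rats in air. In SD rats it had 748, 733.4, 617.8 and 663.5 in SO2, against 657.3, 623.2, 570.6 and 567.3 in air. Arrays of the groups overlapped in both strains. The SD difference, 0.19 (SE 0.11, interval -0.05 to 0.42, adjusted p 0.691), was the smallest in unadjusted p, 0.114, of the 10 probe sets in that comparison, and was 0.20 without SD air replicate 2 (adjusted p 0.696).

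RT1-DMb had 1240.6, 1172.4, 1489.2 and 1088.8 in SH rats in SO2, against 1531.4, 1362.7, 1301 and 1409 in SH rats in air. In SD rats it had 1794.8, 950, 1226.9 and 1727.9 in SO2, against 1476.1, 1162.8, 1230.6 and 1517.7 in air, so that both the lowest and the highest array of the gene were SD arrays in SO2. The lowest, SD SO2 replicate 2, had an actin ratio of 2.94. The difference between SO2 and air was -0.17 in SH rats (interval -0.52 to 0.17) and 0.04 in SD rats (-0.30 to 0.39, and -0.02 without SD air replicate 2). Neither passed the test, with adjusted p of 0.960 in SH rats and 0.965 in SD rats.

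**Figure D1:**
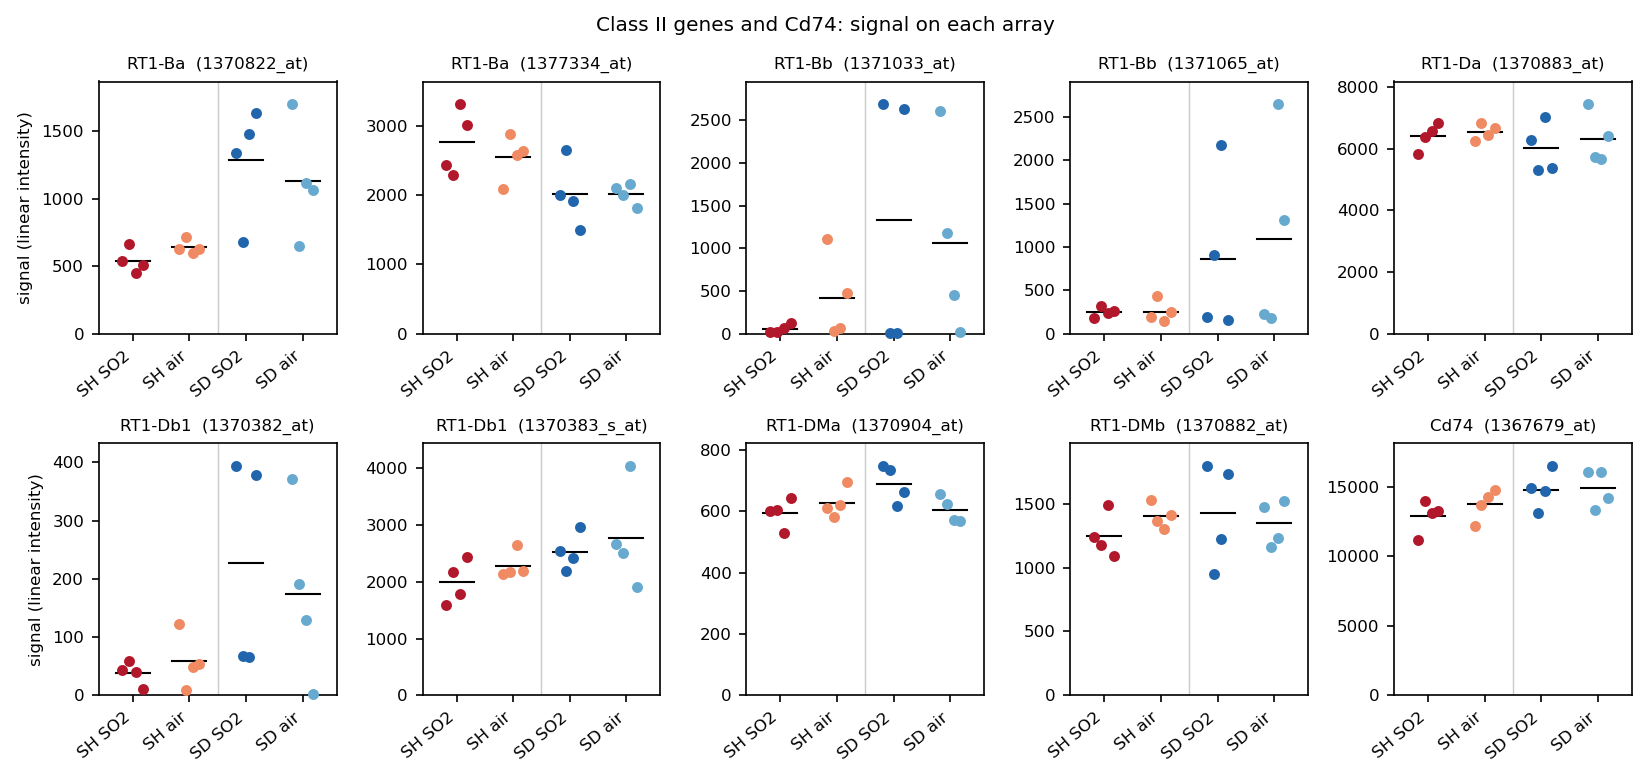
Signal (linear intensity, each panel with its own axis from 0) of the 10 probe sets on each of the 16 arrays, with a horizontal line at the mean of each group of 4. In the RT1-Ba panel for 1370822_at, 3 of 4 SD arrays in each exposure lie above all SH arrays, and in the RT1-Bb panels the SD arrays split widely within a group.

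Between the strains, 1 of the 10 probe sets passed the test. In SO2, RT1-Ba probe set 1370822_at was lower in SH than in SD rats. RT1-Ba encodes the alpha chain of the B molecule. This probe set had signals of 542.4, 667, 452.3 and 509 in SH rats in SO2, against 1340.7, 683, 1483.2 and 1635.4 in SD rats in SO2. All SH arrays lay below all SD arrays, although SD replicate 2, at 683, lay next to the highest SH array, at 667. That SD array had an actin ratio of 2.94. The log2 difference was -1.16 (SE 0.25, interval -1.68 to -0.64, adjusted p 0.0260), a fold of 0.447.

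In SO2, 0.819% of all tested probe sets were called between the strains, and 0.414% were called as lower in SH rats. Among all tested probe sets 5.58% had SH and SD arrays that did not overlap in SO2, and 2 of the 10 class II and Cd74 probe sets did, RT1-Ba 1370822_at and, narrowly and at dim signals, RT1-Db1 1370382_at. An unadjusted p under 0.05 was found for 3 of the 10 and for 1130 of all 11106. RT1-Db1 1370382_at is included in both counts. It passed the filter only through its SD arrays, so its part in them is no support for a strain difference. The call of RT1-Ba 1370822_at ended in 6 of the 8 fits that left out 1 SH or SD array exposed to SO2, with adjusted p up to 0.115. It was retained without SD SO2 replicate 2, where the adjusted p was 0.00205.

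In air the same probe set had 630.8, 718.3, 598.9 and 630.5 in SH rats, against 1698.6, 650, 1116 and 1068 in SD rats. The array at 650 was SD air replicate 2, which lay within the SH range, while the other 3 SD arrays lay above it. The log2 difference in air was -0.72 (SE 0.25, adjusted p 0.491), and without SD air replicate 2 it was -0.96 (SE 0.23, adjusted p 0.0657), so it did not pass the test either way. For this probe set SO2 minus air was -0.25 in SH rats and 0.19 in SD rats, or -0.05 in SD rats without SD air replicate 2. In air 0 of the 10 probe sets were called and 2 had an unadjusted p under 0.05, against 0% called and 713 of all. None of the 10 had SH and SD arrays in air that did not overlap, against 4.03% of all. Without SD air replicate 2, 90 probe sets of the table were called in air, and 0 of them were among the 10.

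The other RT1-Ba probe set, 1377334_at, differed in the opposite direction. It had 2435, 2287.2, 3304.2 and 3011.9 in SH rats in SO2, against 2004.6, 2644.3, 1913.9 and 1501.7 in SD rats in SO2. In air it had 2086.1, 2881.4, 2571.9 and 2628.7 in SH rats, against 2105.4, 2002.8, 2163 and 1807.2 in SD rats. The arrays of the strains overlapped in both exposures. The log2 difference, SH minus SD, was 0.46 in SO2 (SE 0.15, unadjusted p 0.00690, adjusted p 0.208) and 0.32 in air (SE 0.15, adjusted p 0.768). Without SD air replicate 2 the value in air was also 0.32 (adjusted p 0.581).

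The difference in log2(signal + 16), 1370822_at minus 1377334_at on the same array, was -2.13, -1.75, -2.83 and -2.53 in SH rats in SO2, against -0.57, -1.93, -0.36 and 0.12 in SD rats in SO2. In air it was -1.70, -1.98, -2.07 and -2.03 in SH rats, against -0.31, -1.60, -0.94 and -0.75 in SD rats. The SD arrays closest to the SH arrays were replicate 2 in each exposure. With the probe sets of a gene averaged, 0 of the 7 genes were called between the strains in SO2. The 2 probe sets do not give RT1-Ba a single direction between the strains. A different level of the RNA and a different match of an animal's sequence to the probes cannot be told apart from these signals.

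RT1-Db1, the beta chain of the D molecule, had 2 probe sets. For 1370383_s_at the signals were 1591, 2176.5, 1788.9 and 2435.6 in SH rats in SO2, against 2541.4, 2190, 2419.2 and 2965.9 in SD rats in SO2. In air they were 2133.9, 2170.8, 2644.5 and 2185.3 in SH rats, against 2660.9, 2508.7, 4039.9 and 1907.3 in SD rats. The strains overlapped in both exposures. The difference, SH minus SD, was -0.35 in SO2 (SE 0.18, interval -0.72 to 0.02, adjusted p 0.525). In air it was -0.23 (adjusted p 0.878), or -0.27 without SD air replicate 2 (adjusted p 0.732). Between SO2 and air it was -0.21 in SH rats and -0.09 in SD rats, or -0.12 without SD air replicate 2.

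The dimmer RT1-Db1 probe set, 1370382_at, had 43.1, 58.6, 39.2 and 11.2 in SH rats in SO2, against 393.8, 68.2, 66.6 and 378.3 in SD rats in SO2. In air it had 122, 9.8, 48.5 and 53 in SH rats, against 371.2, 190.7, 128.7 and 2.5 in SD rats. In SO2 the strains did not overlap, and the SD arrays fell into a low pair (66.6 and 68.2) and a high pair (378.3 and 393.8). The difference in SO2 was -1.85 (SE 0.77, interval -3.47 to -0.24, unadjusted p 0.0268, adjusted p 0.376) and did not pass the test. In air it was -0.94 (adjusted p 0.895), or -0.68 without SD air replicate 2. The probe set passed the filter on low signals only through its SD arrays, so these strain differences are descriptions. On 3 arrays this probe set lay below the signal under which 10% of the array's probe sets fall, so its values there have no reliable order.

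RT1-Bb, the beta chain of the B molecule, varied most between arrays of 1 group. Probe set 1371033_at had 15.6, 22.9, 72.8 and 127.2 in SH rats in SO2, against 1107.5, 29.4, 68.6 and 476.3 in SH rats in air. In SD rats it had 2684.5, 14.3, 11.9 and 2632.8 in SO2, against 2609.7, 1180.7, 449 and 17.7 in air. On 5 of the 16 arrays it lay below the 10th percentile of the array's own signals, and on 4 of the 8 SD arrays and 1 of the 8 SH arrays it lay above 1000.

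Probe set 1371065_at of the same gene had 186.9, 320.9, 241.4 and 258.5 in SH rats in SO2, against 194.2, 432, 143.3 and 250.7 in SH rats in air. In SD rats it had 193.9, 907.1, 2170.2 and 156 in SO2, against 230.5, 185.4, 2642.4 and 1313.5 in air. It lay above 1000 on 3 of the 8 SD arrays and on 0 of the 8 SH arrays. Among SD rats it spanned 16.9-fold, and among SH rats 3.01-fold.

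In SD rats the 2 RT1-Bb probe sets were high on different arrays. On 0 of the 8 SD arrays were both above 1000, and on 0 were both below 500, although each probe set was below 500 on 4 of the 8. SD SO2 replicates 1 and 4 and SD air replicates 1 and 2 were high on 1371033_at and low on 1371065_at. SD SO2 replicates 2 and 3 and SD air replicates 3 and 4 had the reverse. Both patterns occurred in both exposures, with or without SD air replicate 2. The counts over the 8 SD arrays include that array, which stood apart from its label. Its signals were 1180.7 on 1371033_at and 185.4 on 1371065_at, beside 1107.5 and 194.2 on SH air replicate 1. In SH rats both were below 500 on 7 of the 8 arrays, the exception being SH air replicate 1.

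The rule took probe sets by gene symbol, but this arrangement was noticed in the values, so it is given as a description with no test. As for RT1-Ba, the level of the RNA and the match to the probes cannot be told apart.

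**Figure D2:**
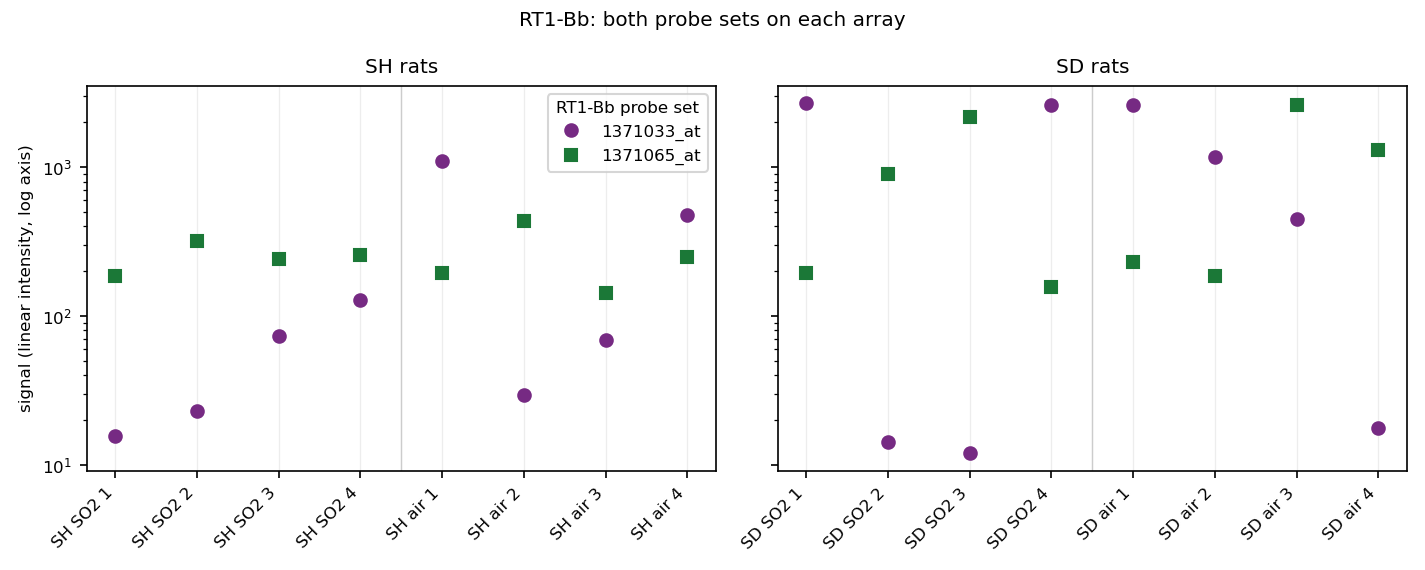
Signal (linear intensity on a log axis) of both RT1-Bb probe sets on each array of the SH rats (left) and the SD rats (right), circles for 1371033_at and squares for 1371065_at. On every SD array 1 symbol lies below 500 and the other above 500.

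No comparison called either RT1-Bb probe set. For 1371033_at, SO2 minus air was -1.77 in SH rats (SE 1.46, interval -4.83 to 1.29) and -0.76 in SD rats (SE 1.46, or -0.31 without SD air replicate 2). SH minus SD was -2.15 in SO2 (interval -5.21 to 0.91, adjusted p 0.666) and -1.13 in air (adjusted p 0.952, and -0.69 without SD air replicate 2). For 1371065_at, SO2 minus air was 0.07 in SH rats and -0.32 in SD rats (SE 0.74, or -0.88 without SD air replicate 2). SH minus SD was -0.98 in SO2 (adjusted p 0.701) and -1.36 in air (adjusted p 0.810, or -1.93 and 0.378 without SD air replicate 2). With intervals this wide, changes of several fold in either direction were not detectable for this gene at 4 arrays per group.

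The spread between arrays of a group set RT1-Bb apart within the table. The standard deviation of log2(signal + 16) within groups, pooled over the 4 groups, was 2.62 for 1371033_at, the highest of all 11106 probe sets tested. RT1-Bb 1371065_at, at 1.31, ranked sixth, and RT1-Db1 1370382_at, at 1.29, ranked seventh. In SH rats alone they ranked 656 and 112, with standard deviations of 0.50 and 0.83, against 4 and 7 in SD rats alone, at 1.79 and 1.63. The first rank of 1371033_at held with offsets of 1 and 64, with quantile normalization, in SH rats alone, in SD rats alone and without SD air replicate 2. RT1-Db1 1370382_at moved to rank 27 with an offset of 64.

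RT1-Da, Cd74 and RT1-DMa were among the steadier probe sets. Their within-group standard deviations were 0.14 for RT1-Da, 0.13 for Cd74 and 0.11 for RT1-DMa, at ranks 10107, 10455 and 10826 from the highest. RT1-Ba 1370822_at was among the more variable, at 0.42 and rank 1460, and its SD was 0.56 in SD rats against 0.18 in SH rats. RT1-Ba 1377334_at, RT1-DMb and RT1-Db1 1370383_s_at lay between 0.24 and 0.29. Of the 10 most variable probe sets in the table, 6 carried RT1 symbols, namely the 3 above and those annotated RT1-A3 with RT1-A2, RT1-CE5 and RT1-CE16, which are class I genes. The other 4 were Fam111a, Lrrc8a, Pafah1b1 and Plpp3. The number with RT1 symbols was 5 with an offset of 1, with an offset of 64 and with quantile normalization, and 4 without SD air replicate 2. In SH rats alone 1 of the 10 most variable was an RT1 probe set, and in SD rats alone 7 were. These genes outside the class II family are named because they filled the top 10 places. The share of RT1 symbols among all tested probe sets is not given here, so the counts only describe those places.

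**Figure D3:**
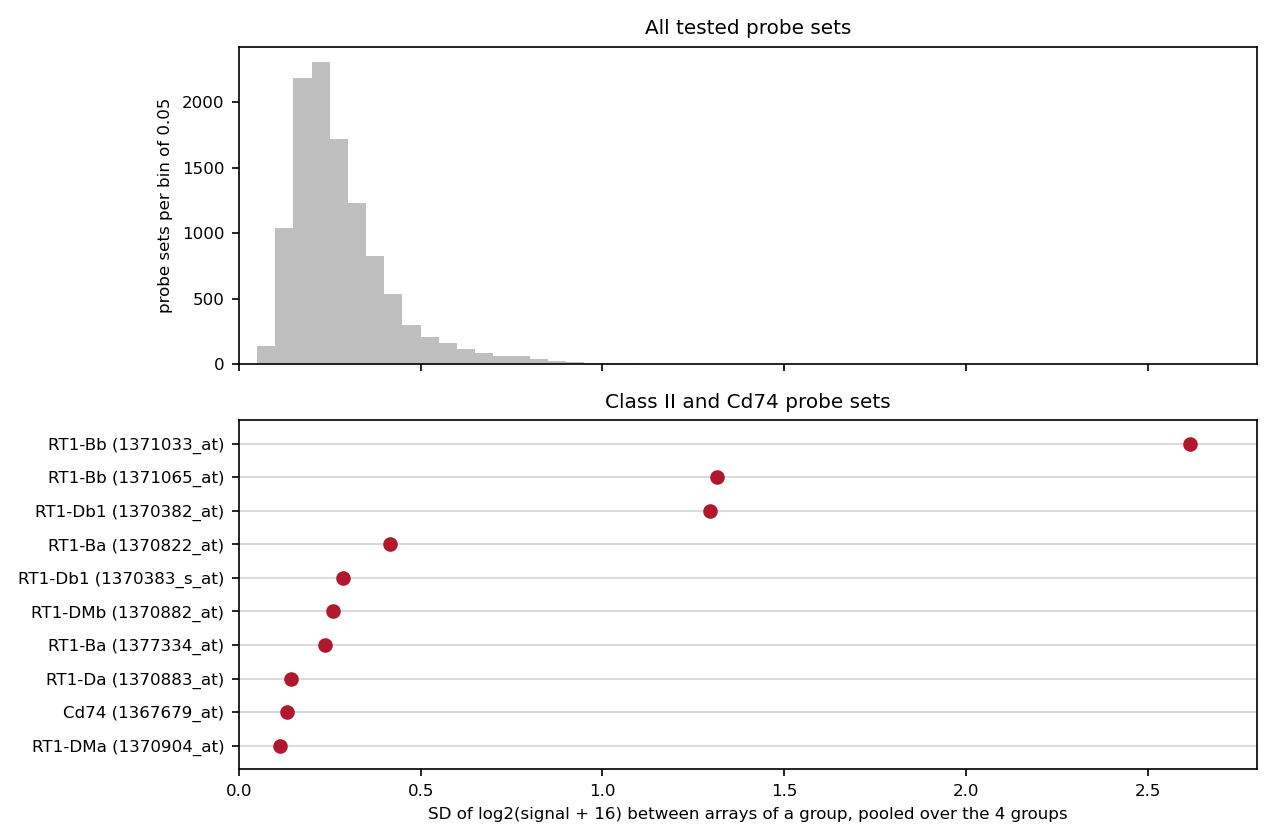
Upper panel, number of probe sets by standard deviation of log2(signal + 16) between arrays of a group (pooled over 4 groups, bins of 0.05) for all 11106 tested. Lower panel, the same quantity for the 10 class II and Cd74 probe sets, where RT1-Bb 1371033_at lies at 2.62 and RT1-Da, Cd74 and RT1-DMa lie between 0.11 and 0.14.

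Between the strains, the remaining genes differed little. Cd74 was -0.20 in SH minus SD rats in SO2 (SE 0.10, interval -0.41 to 0.01, adjusted p 0.510) and -0.12 in air (adjusted p 0.900, or -0.17 and 0.656 without SD air replicate 2). RT1-Da was 0.10 in SO2 (interval -0.13 to 0.32) and 0.06 in air. RT1-DMa was -0.21 in SO2 (interval -0.45 to 0.02, adjusted p 0.546) and 0.05 in air, and RT1-DMb was -0.15 in SO2 and 0.06 in air. Without SD air replicate 2 the values in air were 0.02 for RT1-Da, 0.07 for RT1-DMa and 0.00 for RT1-DMb. None of these passed the test. The median difference over the 10 probe sets was -0.28 in SO2 and -0.18 in air, beside 0.00 for all tested probe sets in each. The median in air was -0.22 without SD air replicate 2, beside -0.01 for all tested probe sets. With 1 probe set per gene, the one of highest mean, the median of the 7 genes was -0.20 in SO2, with 2 above 0 and 5 below. In air it was then 0.05, with 4 above 0 and 3 below, so the sign in air depended on the probe sets counted.

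The difference between the strains in the response to SO2, tested as an interaction, was called for 0 of the 10 probe sets and 0% of all, and an unadjusted p under 0.05 was found for 0 of the 10 and 516 of all. Without SD air replicate 2 these counts among the 10 were again 0 and 0. The value for RT1-Ba 1370822_at was -0.44 (SE 0.35, adjusted p 0.984), or -0.20 without SD air replicate 2. Its call in SO2 and not in air is therefore not a shown difference between exposures.

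**Figure D4:**
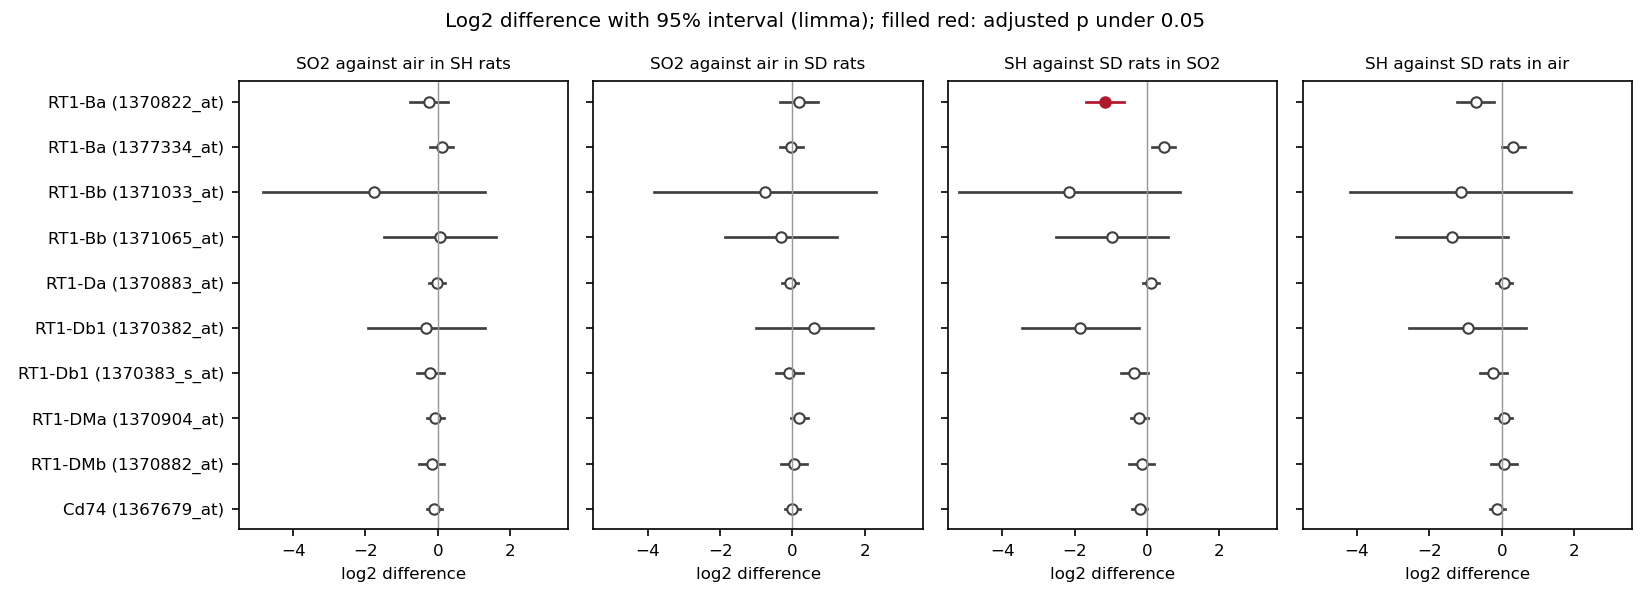
Log2 difference with its 95% interval (limma) for the 10 probe sets in 4 comparisons, SO2 against air in SH rats and in SD rats, and SH against SD rats in SO2 and in air. The filled red point, RT1-Ba 1370822_at at -1.16, is the only one with an adjusted p under 0.05, and the RT1-Bb intervals are the widest.

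The order of the group means differed from gene to gene. Cd74 averaged 12893 ± 1209 in SH rats in SO2, 13743 ± 1102 in SH rats in air, 14811 ± 1385 in SD rats in SO2 and 14935 ± 1372 in SD rats in air (SD, n = 4 each), and RT1-Db1 1370383_s_at and RT1-Ba 1370822_at also had their lowest means in the SH groups. RT1-DMa was lowest in SH rats in SO2, at 594.2 ± 47.5, and highest in SD rats in SO2, at 690.7 ± 61.0. RT1-Da was highest in SH rats in air, at 6540 ± 263, and lowest in SD rats in SO2, at 6010 ± 818. RT1-DMb was lowest in SH rats in SO2, at 1248 ± 173, and highest in SD rats in SO2, at 1425 ± 406. For Cd74, RT1-Da and RT1-DMb, neighbours in the order differed by less than the larger of their SDs.

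Deviations from the group means were compared between 6 of the genes (1 probe set each, RT1-Bb left out because its values split) over the 16 arrays. Of 15 pairs, 9 had a correlation above 0, with a median r of 0.02. RT1-Db1 1370383_s_at and Cd74 had the highest, with r of 0.65 (permutation p 0.0112, adjusted 0.168) and Spearman's rho of 0.77 (permutation p 0.00313, adjusted 0.0469). Without the 2 arrays farthest from the median, r was 0.71. For the remaining pairs r lay between -0.47 and 0.34, with an adjusted p of 0.997 each. All pairs share the same arrays and their scaling.

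The genes whose deviations were most like the mean of the 7 members (1 probe set per gene, 16 arrays, 8049 genes ranked) were Josd1, Bzw2, Pebp1, Ndufs1, Isg20, Pla2g1b, Ndufa13, Capg, Sdf2l1 and Tmem106c. Their Pearson r ran from 0.79 for Tmem106c to 0.87 for Josd1, and is a description without a p, since the arrays share scaling and the genes were picked from the whole table. The members' own r with that mean ran from 0.13 for RT1-Ba 1377334_at to 0.75 for Cd74. Without RT1-Bb in the mean, r was 0.86 for Josd1 and 0.70 for Ndufs1.

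The genes that act on class II were counted in lists of textbook members, with 1 probe set per gene. Over all tested probe sets 0.819% were called between SH and SD rats in SO2, and 0% in each other comparison. Of 8 class II transcription factors 5 were tested, and 0 were called in any comparison. The 2 with the smallest p were Nfya, a subunit of NF-Y, at -0.22 in SH minus SD rats in SO2 (adjusted p 0.569), and Rfx5, a subunit of RFX, at 0.23 in SO2 minus air in SH rats (adjusted p 0.950). Ciita, the class II transactivator, named for its role after its values were seen, averaged 335.2 in SH rats in SO2, 345.9 in SH rats in air, 345.7 in SD rats in SO2 and 357.7 in SD rats in air. Its log2 differences were -0.05 between SO2 and air in each strain and -0.04 between the strains in each exposure, all with SD air replicate 2 included.

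All 12 genes of endosomal processing were tested and 0 were called in any comparison, with or without SD air replicate 2. Ctsd, an endosomal protease, averaged 8263 in SH rats in SO2 and 10087 in SH rats in air, beside 9307 in SD rats in SO2 and 7833 in SD rats in air. Its interaction value was -0.54 (SE 0.18, unadjusted p 0.00613, adjusted p 0.984), or -0.57 without SD air replicate 2 (adjusted p 0.821). Cst3, an inhibitor of cysteine cathepsins, was -0.44 in SH minus SD rats in air (adjusted p 0.683), or -0.53 without SD air replicate 2 (adjusted p 0.365). Of the 6 genes of the MIF receptor complex, for which Cd74 is the surface receptor, 0 were called. Cxcr4, a chemokine receptor, was 0.38 in SH minus SD rats in SO2 (adjusted p 0.260), and Ddt, a relative of MIF, was -0.32 (adjusted p 0.315).

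Interferon gamma is the best known inducer of class II genes, and it acts through Ciita. Of 17 genes of that pathway 14 were on the array and 10 were tested. In SH against SD rats in SO2, 1 of these was called, beside 0.819% of all tested probe sets (0.414% as lower). A link of that call to the class II genes was not tested. The gene was Ifngr1, the ligand-binding chain of the receptor, which was lower in SH rats. It averaged 1938 ± 54.7 in SH rats in SO2, against 3008 ± 361 in SD rats in SO2 (SD, n = 4 each), with ranges of 1857 to 1976 and 2591 to 3472 that did not overlap. The log2 difference was -0.62 (SE 0.11, adjusted p 0.00688), and it passed in all 19 other settings tried. In air the mean of Ifngr1 was 2034 ± 244 for SH rats, against 2920 ± 253 for SD rats (SD, n = 4 each), a difference of -0.52 (adjusted p 0.132) that passed without SD air replicate 2 (-0.58, adjusted p 0.0240). Between SO2 and air, 0 of the 10 were called in either strain, and Gbp2, an interferon-induced GTPase, had the smallest p, at 0.57 in SD rats (SE 0.16, adjusted p 0.372), or 0.56 without SD air replicate 2 (adjusted p 0.443).

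Markers of the cells that carry class II, and of the T helper (CD4) cells to which it shows peptides, were counted in the same way. Of these markers 0 were called in any comparison, with or without SD air replicate 2. The other listed markers were below the filter or had no probe set under these symbols. Tested were 5 of 17 dendritic cell, 4 of 19 B cell, 10 of 19 macrophage, 8 of 15 T helper cell and 9 of 11 alveolar type II cell markers. The summed signal of the dendritic cell markers ran from 1322 to 1548 in SH rats in SO2 and from 1353 to 1542 in SH rats in air, beside 1181 to 1452 in SD rats in SO2 and 1218 to 1577 in SD rats in air. That of the B cell markers ran from 877.1 to 1105 in SH rats in SO2 and from 760.1 to 978.7 in SH rats in air, beside 838.3 to 1328 in SD rats in SO2 and 744.4 to 1389 in SD rats in air. That of the macrophage markers ran from 34652 to 41195 in SH rats in SO2 and from 35526 to 39644 in SH rats in air, beside 35692 to 50754 in SD rats in SO2 and 37322 to 41168 in SD rats in air. Most of that sum was Lyz2, a lysozyme gene, which averaged 31370 of 38992 in SH rats in SO2. Without Lyz2 the sum ran from 6551 to 8052 in SH rats in SO2 and from 7962 to 8466 in SH rats in air, beside 6497 to 8060 in SD rats in SO2 and 7021 to 7779 in SD rats in air. Within the list Cd14 and Cd68 differed in sign between SH and SD rats in SO2, at 0.69 and -0.32 (adjusted p 0.189 and 0.509), and Cd68 is named because its value was seen to oppose that of Cd14. The T helper cell markers summed to 2321 to 2773 in SH rats in SO2, against 2392 to 3292 in SD rats in SO2, and the type II cell markers to 104605 to 120434 in SH rats in SO2, against 106544 to 138828 in SD rats in SO2. These ranges overlapped between SH and SD rats in SO2, the comparison in which RT1-Ba 1370822_at was called. In SH minus SD rats there, 0 of the 8 T helper cell markers lay above 0 and 8 below, with a median of -0.11. Of the 9 type II cell markers 1 lay above 0 and 8 below, with a median of -0.05. The part of the cell markers in the RT1-Ba result was not tested.

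The marker genes with the smallest p in each list did not pass the test. Clec10a, a lectin of dendritic cells and macrophages, was -0.66 in SH minus SD rats in SO2 (adjusted p 0.200). In that comparison 3 of the 5 dendritic cell markers tested lay above 0 and 2 below, with a median of 0.09. Batf3, a dendritic cell transcription factor, was 0.34 there. In SO2 minus air averaged over strains Batf3 was -0.40 (adjusted p 0.568), or -0.43 without SD air replicate 2. Cd14, a macrophage receptor, was 0.69 in SH minus SD rats in SO2 (adjusted p 0.189). There 4 of the 10 macrophage markers tested lay above 0 and 6 below. Mpeg1, a macrophage pore protein, was 0.32 in SH minus SD rats in air (adjusted p 0.381), or 0.36 without SD air replicate 2 (adjusted p 0.180). In SO2 minus air averaged over strains, the T cell genes Lat and Icos were 0.32 and 0.33 (adjusted p 0.438 and 0.606), the B cell gene Ebf1 was 0.43 (adjusted p 0.544), and the type II cell genes Lpcat1 and Napsa were -0.50 and -0.23 (adjusted p 0.356 and 0.543). Without SD air replicate 2 these values were 0.29 for Lat, 0.39 for Icos, 0.45 for Ebf1, -0.52 for Lpcat1 and -0.22 for Napsa, with adjusted p from 0.389 to 0.630. The signal of Lpcat1 ran from 2796 to 3343 in SH rats in SO2 and from 3597 to 4609 in SH rats in air, beside 2994 to 3682 in SD rats in SO2 and 3483 to 9985 in SD rats in air. Cd37, a B cell membrane protein, was -0.30 in SH minus SD rats in SO2 (adjusted p 0.492), where 2 of the 4 B cell markers tested lay above 0 and 2 below.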

How the data were processed

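Lung RNA of SH and SD rats in SO2 or air was measured on 16 arrays, 4 per group, labelled as biological replicates. Each deposited value is an intensity of 1 probe set on 1 array, made by the authors with GCOS, per the submitters' processing notes, which state neither version nor algorithm in the sources used here. Trimmed array means (2% off each end) were 500.099 to 500.111, so the deposited scaling was kept. From 15923 probe sets, 57 controls and the lowest 30% by mean were left out, leaving 11106. The number of arrays limits the precision.

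Tests used log2(intensity + 16), which understates changes of dim probe sets, in limma 3.58.1 (R 4.3.3), with 4 group means, 12 residual degrees of freedom, eBayes with a trend, Benjamini-Hochberg adjustment and a threshold of 0.05, for 6 comparisons. The fit was tested on data simulated with normal noise at each probe set's own spread, with changes added in SH rats in SO2. For SO2 against air in SH rats it recovered 10.4% of log2 changes of 0.5, 76.1% of changes of 1 and 93.9% of changes of 2. Changes of 0.5 were thus mostly missed. Figures used matplotlib 3.10.9 (Python 3.11.15). Symbols come from the platform annotation, where 12783 probe sets have 1, 312 several and 2771 none. The genes, lists and rules were chosen with earlier results of these data known. All members are named, and from each list every called gene and the 2 of smallest p. Replicate numbers follow sample order within each group, and the labels give no pairing of the arrays. The alternatives tried were offsets of 1 and 64, quantile or median scaling, no filter or a filter on the lowest 50%, averaging over each gene's probe sets, eBayes without a trend, only the groups compared, a replicate block, title number or actin ratio as covariate, and each array left out.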

Additional observations from a re-analysis of the deposited data

Results flagged for a closer look

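RT1-Db1 probe set 1370383_s_at had a signal of 2644.5 on SH air replicate 3, while the other SH air arrays lay between 2133.9 and 2185.3. The gap to its nearest neighbour was 0.889 of the group's range, above Dixon's critical value at the 95% level. It was the 1 such array among the 40 sets of 4 arrays examined (10 probe sets in 4 groups), and chance gives about 1 in 20. No probe set had all arrays of SH rats moving one way with SO2 and all of SD rats the other.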

How the results depend on the processing

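The 10 differences in 6 comparisons were recomputed 1262 times in other settings: 1190 kept their direction and their side of the threshold, 65 changed sign, 7 lost the call, and 0 gained one. All sign changes were in values that did not pass the test. The 7 lost calls were all of RT1-Ba 1370822_at between SH and SD rats in SO2, which passed in 12 of 19 settings with adjusted p from 0.00205 to 0.115. Without a trend in eBayes its adjusted p was 0.0616, so that 0 of the 10 probe sets were called. It was 0.0613, 0.1004 and 0.0607 without SH SO2 replicates 1, 3 and 4, and 0.0795, 0.0881 and 0.115 without SD SO2 replicates 1, 3 and 4. With probe sets of a gene averaged, 0 member genes were called. The 8 fits with 1 array left out called 0 to 1 of the 10. With the replicate number as a block, RT1-Ba 1370822_at had an adjusted p of 0.0314 and the block changed no call among the 10. Same-numbered arrays did not deviate together (r from -0.43 to 0.15, over 0.1 in 4 of 24 pairs). Replicate numbers follow sample order within each group, so neither the block nor these r can show whether animals or runs were paired.

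Over all probe sets, arrays left out gave 0 to 1 calls for SO2 in SH rats, 0 to 3 in SD rats, 0 to 11 averaged over strains, 0 to 90 for SH against SD rats in air and 51 to 98 in SO2. The highest in air came without SD air replicate 2, and 11 came without SD air replicate 4. Averaging probe sets gave 2 calls for SO2 averaged over strains. For the strains in air an offset of 64 gave 5 calls, and no filter, no trend and the actin ratio gave 1 each. For Ifngr1 in air, the difference without SD air replicate 2 was -0.58 and passed. The settings for Ifngr1, for the ranks of spread, for the lists without SD air replicate 2 and for the macrophage sum without Lyz2 were added after seeing the data.

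The other sign changes follow, and their cause was not tested. With title number as a covariate, whose values in SH air overlap with those of no other group, SO2 minus air was -1.71 for RT1-Bb 1371065_at, 1.37 for RT1-Db1 1370382_at and 0.022 for RT1-DMa in SH rats, and 0.014 for Cd74 in SD rats. SH minus SD in air was 0.028 for Cd74, 0.42 for RT1-Bb 1371065_at and -0.047 for RT1-DMa, and the interaction was 0.99 for RT1-Bb 1371033_at, -1.71 for RT1-Bb 1371065_at and 1.07 for RT1-Db1 1370382_at. With the actin ratio, SO2 minus air was -0.021 for RT1-Bb 1371065_at in SH rats, 0.042 for Cd74 in SD rats, and 0.062 for RT1-Ba 1370822_at and 0.039 for RT1-DMb averaged. Quantile scaling gave -0.0036 for RT1-Bb 1371065_at in SH rats, and median centring -0.0046 for RT1-Ba 1377334_at averaged.

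With 1 array left out, the values that changed sign ranged as follows. In SH rats, SO2 minus air was -0.15 to 0.35 for RT1-Bb 1371065_at, -0.065 to 0.011 for RT1-Da and -0.74 to 0.062 for RT1-Db1 1370382_at. In SD rats it was -0.066 to 0.044 for Cd74, -0.050 to 0.46 and -0.17 to 0.10 for RT1-Ba 1370822_at and 1377334_at, -2.02 to 0.35 and -1.01 to 0.36 for RT1-Bb 1371033_at and 1371065_at, -0.15 to 0.013 for RT1-Da, -0.31 to 0.98 and -0.25 to 0.11 for RT1-Db1 1370382_at and 1370383_s_at, and -0.082 to 0.22 for RT1-DMb. Averaged over strains it was -0.15 to 0.10 and -0.028 to 0.11 for RT1-Ba 1370822_at and 1377334_at, -0.47 to 0.22 for RT1-Bb 1371065_at, -0.31 to 0.33 for RT1-Db1 1370382_at and -0.13 to 0.024 for RT1-DMb. SH minus SD in air was -0.0038 to 0.12 for RT1-DMb. The interaction was -2.12 to 0.25 and -0.29 to 1.08 for RT1-Bb 1371033_at and 1371065_at, -0.047 to 0.11 for RT1-Da and -0.31 to 0.048 for RT1-Db1 1370383_s_at. Dim values limit RT1-Bb 1371033_at and RT1-Db1 1370382_at, which lay below an array's 10th percentile on 5 and 3 arrays.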
